A study of Mus musculus with 6 samples.

Results

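The Eph receptors and their ephrin ligands were examined in kidneys of newborn mice with and without an active form of Notch2. The series compares 3 wild type kidney samples with 3 samples of the genotype R26NICD2/+Kspcre, all taken on post natal day 3 and measured by RNA sequencing of the whole organ. In R26NICD2/+Kspcre mice, called NICD2 here, the intracellular domain of Notch2 is placed at the Rosa26 locus and switched on by a Cre under the promoter of Ksp-cadherin (Cdh16), a gene of renal tubule epithelium. The labels give no further allele for the wild type group and do not say whether these animals carried either transgene alone.

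The 10 genes described were selected on measured values of the same comparison of NICD2 with wild type kidneys, so their differences are given as a description, with no p-value, and any count of members called is set only beside the share over all genes. They are 6 ligands (Efna1, Efna3, Efna4, Efna5, Efnb1 and Efnb2) and 4 receptors (Epha2, Epha7, Ephb2 and Ephb4), out of 22 mouse genes of the family, 8 for ligands and 14 for receptors. They were picked by name with values of this comparison in view, with no threshold, from 19658 genes with a value in the deposited table. All 10 were among the 13765 genes that reached 1 FPKM in at least 3 libraries and were tested. FPKM are fragment counts scaled to transcript length and to the mapped total of the library, so levels of different genes can be set side by side. Fold changes are differences of log2(FPKM + 1), NICD2 minus wild type, with the standard error (SE) from a limma fit over all tested genes. The added 1 makes them smaller than the ratio of means for genes at low levels.

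Eph receptors are the largest family of receptor tyrosine kinases and bind ephrins that are held on the surface of a neighbouring cell. Ephrin-A ligands are attached by a lipid (GPI) anchor and ephrin-B ligands span the membrane, and the receptors are grouped into EphA and EphB by the class they mainly bind. Contact passes a forward signal into the cell with the receptor and a reverse signal into the cell with the ephrin, and the system is known for cell sorting, boundary formation, axon guidance and the separation of arteries from veins.

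The libraries held about 16000000 to 16900000 fragments each, an estimate read off the spacing of the smallest FPKM, and 13568 to 13784 genes reached 1 FPKM. Correlations of log2(FPKM + 1) over genes were 0.985 to 0.990 within a genotype and 0.968 to 0.9797 between genotypes. A separate row of the table for human Notch2 read 0, 0.03 and 0.03 FPKM in the wild type and 75.4, 79.6 and 60.2 FPKM in the NICD2 libraries, which matches the labels. Nrarp, a Notch target that feeds back to restrain the pathway, read 18.6 ± 1.73 FPKM in wild type and 145 ± 25.4 FPKM in NICD2 kidneys (SD, n = 3 per genotype). Wild type replicate 3 and NICD2 replicate 1 stood apart in adrenal gland markers, with summed levels of 4.39 and 1.99 FPKM beside 125 to 133 FPKM in the other libraries. NICD2 replicate 3 held none of 4 Y-linked transcripts that the other libraries had. Separate animals are not stated for the samples of a genotype, so p-values here measure only how far these samples spread, and that spread may be partly technical. Markers of collecting duct, proximal tubule, thick limb, podocytes, stroma and endothelium were all present in each library, as a whole kidney should show. Summed tubule markers differed between the genotypes. In wild type and NICD2 libraries, principal cell markers summed to 375 to 403 and 201 to 242 FPKM, with 7 of 8 log2 fold changes negative. Intercalated cell markers summed to 161 to 165 and 42.5 to 50.35 FPKM. Proximal tubule markers summed to 487 to 523 and 328 to 394 FPKM. Of these 6 markers 5 had negative log2 fold changes and 1 positive, with a median of only -0.11. Thick limb markers summed to 283 to 317 and 446 to 555 FPKM, although 3 of 5 had negative log2 fold changes. The part of these cell types in the ephrin and Eph values was not tested.

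Efna1, Efna3 and Efna4 lie next to each other on the minus strand of chromosome 3 within 66.3 kb, at chr3:89271730-89280951, chr3:89313899-89322960 and chr3:89333393-89338028 (GRCm38, from the deposited table). Efna1 and Efna3 are 32.9 kb apart and Efna3 and Efna4 10.4 kb. The 250 bases before 1 start site of each are printed because these 3 neighbouring genes of 1 ligand class differed so unequally between the genotypes. RefSeq also has another start for Efna3 and for Efna1, 1192 and 1306 bases into the gene, which is not printed. The sequences are from RefSeq (GRCm38.p6), read 5′ to 3′ on the minus strand, and cover chr3:89322940-89323189 for Efna3, chr3:89338029-89338278 for Efna4 and chr3:89280952-89281201 for Efna1.
Efna3: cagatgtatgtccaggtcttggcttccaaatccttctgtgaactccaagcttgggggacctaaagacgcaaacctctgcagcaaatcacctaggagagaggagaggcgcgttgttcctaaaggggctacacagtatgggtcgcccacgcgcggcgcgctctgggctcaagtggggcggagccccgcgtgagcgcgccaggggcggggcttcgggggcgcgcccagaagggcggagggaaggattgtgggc
Efna4: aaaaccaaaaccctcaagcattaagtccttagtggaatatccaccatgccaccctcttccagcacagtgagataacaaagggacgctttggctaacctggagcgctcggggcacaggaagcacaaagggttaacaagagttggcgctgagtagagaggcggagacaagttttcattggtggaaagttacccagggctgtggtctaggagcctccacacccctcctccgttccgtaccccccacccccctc
Efna1: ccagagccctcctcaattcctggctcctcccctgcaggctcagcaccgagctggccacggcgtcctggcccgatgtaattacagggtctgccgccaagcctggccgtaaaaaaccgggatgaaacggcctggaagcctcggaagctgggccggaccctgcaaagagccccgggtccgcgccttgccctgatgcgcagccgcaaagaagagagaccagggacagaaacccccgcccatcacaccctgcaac
The 300-base windows around these starts (250 before, 50 after) had a GC content of 64.0% with 22 CpG for Efna3, 63.7% with 20 CpG for Efna1 and 55.7% with 11 CpG for Efna4. The windows at the other starts had 69.7% with 34 CpG for Efna3 and 63.3% with 20 CpG for Efna1. The medians over all RefSeq promoter windows were 52.7% and 7 CpG.

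RBPJ is the DNA-binding protein through which the Notch intracellular domain acts, and the core of its motif is TGGGAA. This core was searched on both strands of the 300-base windows, of which the 10 genes had 13. It was present in 4 of the 13 windows (30.8%), belonging to Efna3, Epha7 and Efnb1, and in 25.6% of all 32851 RefSeq promoter windows, so the share among these genes lay near that of promoters at large. The 2 Epha7 windows overlap and hold the same site, which is thus counted for each window. In Efna3 the core started 42 bases after the start site used above, and the window at its other start held none. In Epha7 the core started 93 or 107 bases before the start site, by the start site used. Those matches are printed within 30 bases, with the core in capitals, for Efna3 at chr3:89322890-89322919 (minus strand) and for Epha7 at chr4:28813024-28813053 (plus strand).
Efna3: gcagcggcggcagcagggagcTGGGAAgct
Epha7: ccgccccccggccgTGGGAAtcgccgccta
The longer forms GTGGGAA and CGTGGGAA, which contain the core, were found among these genes in Epha7 and are held by 6.38% and 0.734% of all windows. The E-box CACGTG, a motif of Hey proteins among others, was in none of the 13 windows and in 7.15% of all windows. A match is a run of letters and not a measured site, and binding was not measured in these samples.

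Efna3, a GPI-anchored ligand of EphA receptors, differed most among the members. It read 2.38, 2.41 and 2.43 FPKM in the wild type libraries and 24.7, 17.5 and 15.7 FPKM in the NICD2 libraries. Every NICD2 library was thus far above every wild type library, with the highest value in NICD2 replicate 1. The means were 2.41 ± 0.025 and 19.3 ± 4.79 FPKM (SD, n = 3 each), a ratio of 8.02 and a log2 fold change of 2.55 ± 0.14 (SE). The ratio for Nrarp in the same libraries was 7.79. By fold change Efna3 ranked 12 from the top of all 13765 tested genes, and its level moved from percentile 12.3 of these genes in wild type to percentile 67.6 in NICD2 kidneys. The wild type values rest on about 82 to 89 fragments per library, for which counting alone gives an SD of 0.259 FPKM, which is more than the SD observed between them. The authors' deposited table gives a log2 fold change of 3.00 for Efna3 and of 0.39 for Efna4, computed in a way that the table does not state. Leaving out the libraries low in adrenal markers gave 2.37 ± 0.10 (SE), and leaving out any single library gave 2.37 to 2.68.

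Efna4, another GPI-anchored ligand and the neighbour of Efna3, was also higher in each NICD2 library. It read 11.4, 11.4 and 11.2 FPKM in wild type and 18.8, 14.7 and 14.7 FPKM in NICD2 kidneys. NICD2 replicate 1 was again the highest, and the other 2 were equal. The means of 11.3 ± 0.129 and 16.0 ± 2.36 FPKM (SD, n = 3 each) had a ratio of 1.41 and a log2 fold change of 0.46 ± 0.10 (SE), or 0.34 without the libraries low in adrenal markers.

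Efna1, a ligand of EphA2, was the most abundant family member in both genotypes. Its levels were 44.6, 44.7 and 40.9 FPKM in wild type and 53.2, 49.0 and 48.1 FPKM in NICD2 kidneys. The groups did not overlap, but the gap between the nearest libraries was small beside the level. The mean went from 43.4 ± 2.18 to 50.1 ± 2.71 FPKM (SD, n = 3 each), with a log2 fold change of 0.20 ± 0.07 (SE), or 0.12 without the libraries low in adrenal markers.

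Efna5 lies apart from this cluster at chr17:62602957-62881317 (minus strand) and encodes a ligand that binds EphB2 as well as EphA receptors. It read 9.03, 8.49 and 9.91 FPKM in wild type and 10.4, 10.9 and 10.5 FPKM in NICD2 kidneys. All NICD2 libraries were above all wild type libraries, and the NICD2 values lay closer together. The means were 9.14 ± 0.717 and 10.6 ± 0.248 FPKM (SD, n = 3 each) and the log2 fold change 0.20 ± 0.07 (SE).

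**Figure D1:**
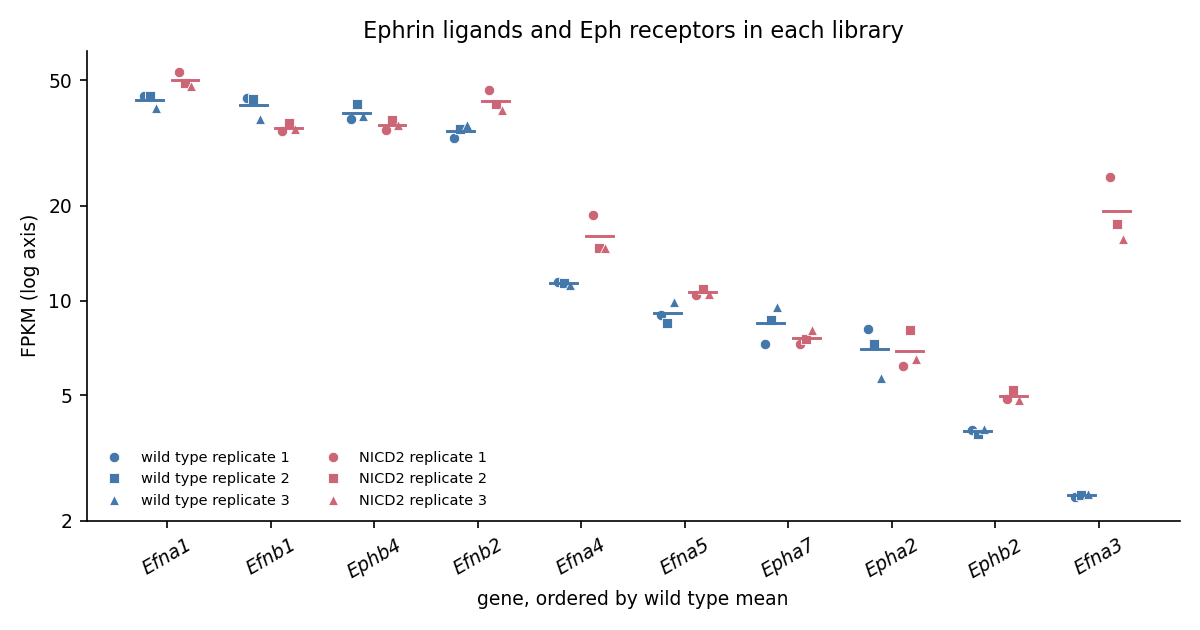
FPKM of the 10 member genes in each library (points; wild type and NICD2, 3 libraries each), with the mean of each genotype. Efna3 separates the genotypes by the widest margin (2.41 against 19.3 FPKM on average), while the groups overlap for Epha2 and Epha7.

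Efna3 was chosen on this comparison, so no result is read from the smaller differences of the genes around the cluster. Within 100 kb on either side 21 other genes with a symbol were counted, leaving out 2 rows that span over 1 Mb. Of the 21, 19 were tested and none was called at an adjusted p under 0.05 by limma. At an unadjusted p under 0.05 there were 8. Over all tested genes, 8.79% were called and 25.1% were at an unadjusted p under 0.05. The log2 fold changes of these genes ran from -0.31 to 0.38 with a median of -0.13. Adam15, a metalloprotease gene 1.61 kb from Efna4, was at 36.2 ± 1.64 FPKM in wild type and 31.0 ± 2.17 FPKM in NICD2 kidneys, with a log2 fold change of -0.21 ± 0.07 (SE, limma adjusted p = 0.101). Slc50a1, a sugar transporter gene 1.16 kb from Efna1, had the lowest value, -0.31 ± 0.11 (SE, adjusted p = 0.122). Cks1b, a cell cycle gene, had the highest, 0.38 ± 0.12 (SE, adjusted p = 0.0968), and was called without wild type replicate 1 (adjusted p = 0.0278). Among the nearest genes, Dcst1 and Dcst2 were below the level needed for testing. Clk2 and Scamp3 share their position with the joint row Clk2-scamp3, so reads may be divided among them and their values are uncertain.

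**Figure D2:**
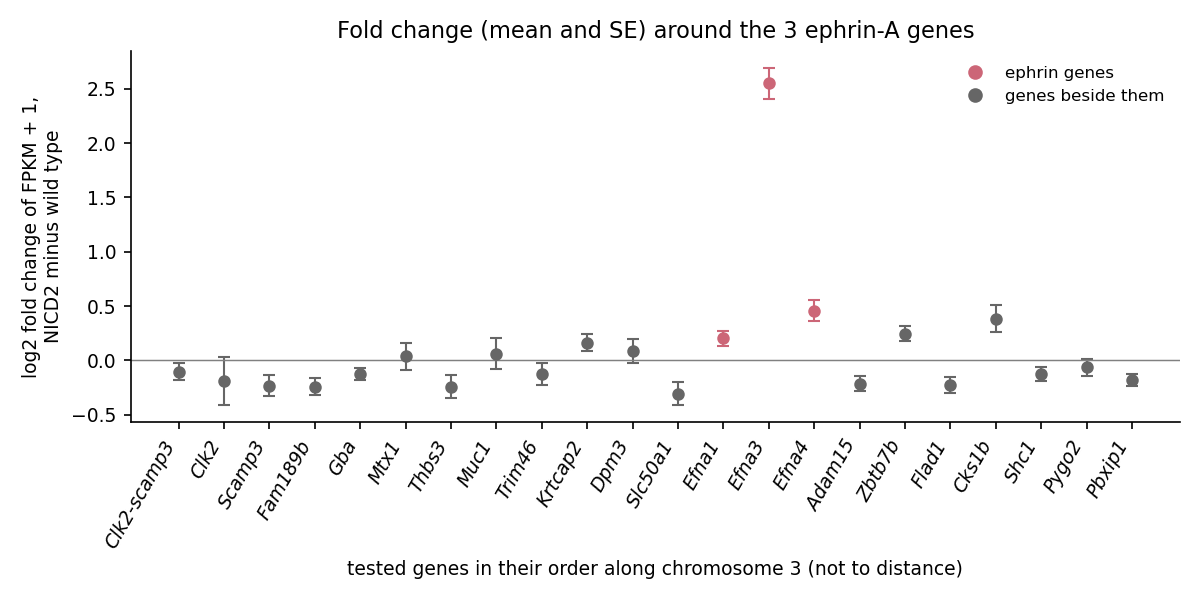
Log2 fold change of log2(FPKM + 1), NICD2 minus wild type, with its SE, for the tested genes within 100 kb of the Efna1, Efna3 and Efna4 cluster. Genes are in their order along chromosome 3, and rows spanning over 1 Mb were left out. Efna3 stands at 2.55 while the genes outside the cluster lie between -0.31 and 0.38.

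The makeup of the ephrin-A pool differed between the genotypes. The pool was taken as the summed FPKM of Efna1 to Efna5 without correction for protein. The sums were 72.7, 71.4 and 68.5 FPKM in wild type and 110.9, 95.98 and 93.1 FPKM in NICD2 kidneys. Each NICD2 sum exceeded each wild type sum. The mean was 70.8 ± 2.17 FPKM in wild type and 99.98 ± 9.57 FPKM in NICD2 kidneys (SD, n = 3 each), a ratio of 1.41. Efna3 supplied 16.9 of the 29.1 FPKM between the means, or 58.0%. Its share of the pool was 3.27%, 3.38% and 3.55% in wild type and 22.3%, 18.2% and 16.8% in NICD2 libraries, while the mean share of Efna1 was 61.2% in wild type and 50.2% in NICD2 libraries. Without Efna3 the pool was 68.4 ± 2.19 FPKM in wild type and 80.7 ± 4.78 FPKM in NICD2 kidneys (SD, n = 3 each), a ratio of 1.18.

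**Figure D3:**
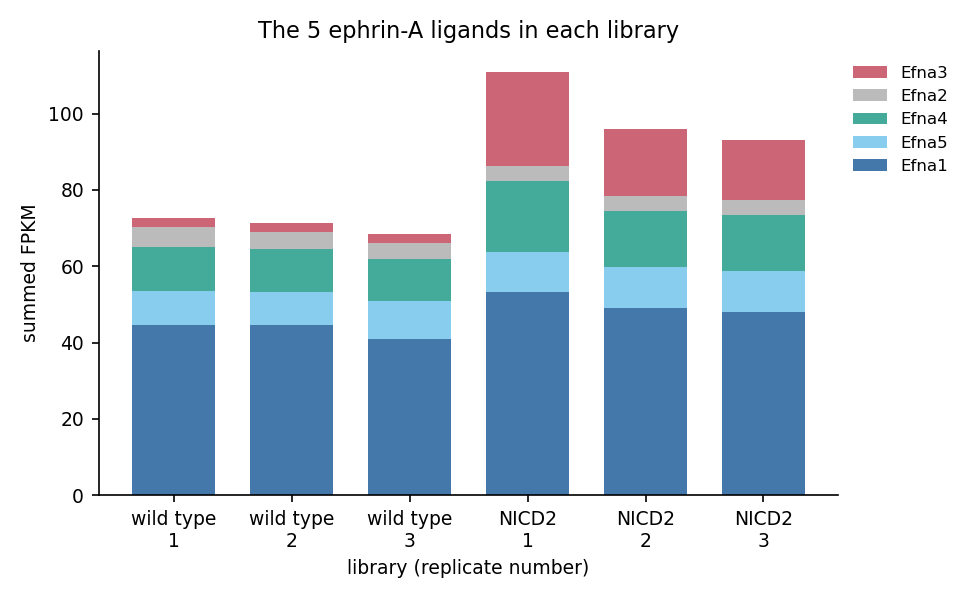
Summed FPKM of the ephrin-A ligands in each of the 6 libraries as stacked bars from 0, coloured by gene. The Efna3 segment grows from 3.27% to 3.55% of the bar in wild type to 16.8% to 22.3% in NICD2 libraries.

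The ephrin-B ligands among the members, which span the membrane, had fold changes of opposite sign. Efnb2, a ligand that marks arterial endothelium and is also expressed outside vessels (chr8:8617235-8661260, minus strand), read 32.8, 35.0 and 36.1 FPKM in wild type and 46.7, 42.2 and 40.4 FPKM in NICD2 kidneys. Every NICD2 value lay above every wild type value. The means of 34.6 ± 1.67 and 43.1 ± 3.24 FPKM (SD, n = 3 each) had a ratio of 1.24 and a log2 fold change of 0.31 ± 0.07 (SE).

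Efnb1, an X-linked gene at chrX:99136061-99149022 (plus strand), read 44.04, 43.7 and 37.8 FPKM in wild type and 34.5, 36.6 and 35.0 FPKM in NICD2 kidneys. The NICD2 values were all lower, and wild type replicate 3 came within reach of them. The means were 41.8 ± 3.52 and 35.3 ± 1.09 FPKM (SD, n = 3 each), with a log2 fold change of -0.23 ± 0.07 (SE). NICD2 replicate 3, the library without Y-linked transcripts, lay between the other 2 NICD2 libraries for this X-linked gene. The summed ephrin-B level was 82.9 ± 3.07 FPKM in wild type and 83.5 ± 2.47 FPKM in NICD2 kidneys (SD, n = 3 each), but its makeup differed, with Efnb2 at 41.9% of it in wild type and 51.6% in NICD2 kidneys and Efnb1 at 50.4% and 42.3%.

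The EphA receptors among the members showed no separation of the genotypes. Epha2, a receptor for ephrin-A1 (chr4:141301221-141329384, plus strand), read 8.12, 7.30 and 5.66 FPKM in wild type and 6.20, 8.04 and 6.54 FPKM in NICD2 kidneys. The ranges overlap almost fully. The means were 7.03 ± 1.25 and 6.93 ± 0.979 FPKM (SD, n = 3 each), and the log2 fold change of -0.01 ± 0.13 (SE) changed sign in 4 of 12 alternative analyses. Epha7, a receptor with known isoforms that lack the kinase domain (chr4:28813047-28967511, plus strand), read 7.30, 8.65 and 9.53 FPKM in wild type and 7.30, 7.54 and 8.06 FPKM in NICD2 kidneys. The groups overlap, with the lowest value shared, at a log2 fold change of -0.13 ± 0.10 (SE). The table gives a single value per gene, so isoforms of Epha7 cannot be told apart.

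The EphB receptors among the members had fold changes of opposite sign. Ephb2, a receptor for ephrin-B ligands (chr4:136647536-136836012, minus strand), read 3.88, 3.76 and 3.92 FPKM in wild type and 4.87, 5.20 and 4.85 FPKM in NICD2 kidneys. All 3 NICD2 libraries were above all wild type libraries, and the spread within each genotype was small. The means were 3.85 ± 0.083 and 4.97 ± 0.197 FPKM (SD, n = 3 each), with a ratio of 1.29 and a log2 fold change of 0.30 ± 0.08 (SE). Ephb4, the receptor that marks venous endothelium and binds ephrin-B2 (chr5:137350109-137374522, plus strand), read 37.6, 42.0 and 38.5 FPKM in wild type and 34.9, 37.4 and 36.0 FPKM in NICD2 kidneys. The NICD2 values were all lower, although the nearest libraries of the genotypes, at 37.4 and 37.6 FPKM, differed by very little. The means were 39.4 ± 2.33 and 36.1 ± 1.24 FPKM (SD, n = 3 each), with a log2 fold change of -0.12 ± 0.07 (SE).

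In the wild type kidney the members ranked, from high to low mean FPKM, Efna1, Efnb1, Ephb4, Efnb2, Efna4, Efna5, Epha7, Epha2, Ephb2 and Efna3. Libraries of neighbours in this order overlapped for Efna1 and Efnb1, Efnb1 and Ephb4, Efna5 and Epha7, and Epha7 and Epha2. In NICD2 kidneys the order was Efna1, Efnb2, Ephb4, Efnb1, Efna3, Efna4, Efna5, Epha7, Epha2 and Ephb2, with overlap between Ephb4 and Efnb1, Efna3 and Efna4, and Epha7 and Epha2. Efna3 thus went from rank 10 to rank 5 of the 10 members. Efnb2 moved from rank 4 to rank 2 and Efnb1 from rank 2 to rank 4. NICD2 replicate 1 held the highest NICD2 value for Efna1, Efna3, Efna4 and Efnb2. It also had the highest summed Notch target level (339 FPKM beside 314 and 268 FPKM). The largest part of that sum was Nrarp, at 171, 143 and 120 FPKM in NICD2 replicates 1 to 3. Nrarp, Hes1, Hey1 and Dtx1 were highest in replicate 1. Human Notch2, Heyl, Hey2 and Hes5 were highest in replicate 2, as were Efna5, Efnb1, Epha2, Ephb2 and Ephb4. Whether the Notch target and member levels go together was not tested.

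Counted over the members, 4 of 10 (Efna3, Efna4, Efnb2 and Ephb2) were called higher at an adjusted p under 0.05 by limma, where 4.93% of all tested genes were, and none was called lower, where 3.86% were. At an unadjusted p under 0.05 there were 7 of the 10 and 25.1% of all tested genes. For 8 of 10 the genotypes did not overlap, 6 higher and 2 lower, as for 30.5% of all tested genes. Since the members were chosen on this comparison, nothing is read from these counts. The median log2 fold change was 0.20 over the members and -0.01 over all genes. The count of members called higher was 1 without wild type replicate 1, 2 or 3 and without the pair low in adrenal markers. Leaving out NICD2 replicate 1 or 2 left 2 members called higher each, and without wild type replicate 3 Efnb1 was called lower.

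The other 12 family genes are those left when the members were chosen on values of this comparison. That choice shaped this set too, so its counts, median and p-values are a description and nothing is read from them. Of the 12, Epha5, Epha6, Epha8 and Epha10 were under 1 FPKM in every library and were not tested. Of the 8 tested, Ephb3 was called higher and Epha4 lower, where 4.93% and 3.86% of all tested genes were. The median log2 fold change of the 8 was -0.12. Ephb3, an EphB receptor, read 12.1, 12.7 and 13.1 FPKM in wild type and 17.7, 15.4 and 16.1 FPKM in NICD2 kidneys. The genotypes did not overlap, and the log2 fold change was 0.35 ± 0.07 (SE, limma adjusted p = 0.0203). Its call depended on single libraries: it was lost without wild type replicate 1 or 2, or without replicate 1 or 3 of NICD2 (adjusted p up to 0.0785). Epha4, a receptor that binds both ephrin classes, read 11.3, 13.5 and 13.5 FPKM in wild type and 9.39, 10.3 and 9.99 FPKM in NICD2 kidneys. Here too the genotypes did not overlap, and the log2 fold change was -0.33 ± 0.08 (SE, adjusted p = 0.0439). Its call held without wild type replicate 1 and was lost without each of the other 5 libraries, with adjusted p up to 0.157. Both calls were lost without the pair low in adrenal markers, where Ephb3 was at 0.32 and Epha4 at -0.26 on the log2 scale.

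The remaining 6 tested genes did not pass the test. Efnb3, the third ephrin-B ligand, read 6.67, 6.94 and 5.69 FPKM in wild type and 4.72, 4.78 and 5.59 FPKM in NICD2 kidneys, without overlap, at -0.30 ± 0.10 (SE, adjusted p = 0.0946). Epha1, an EphA receptor of epithelia, read 5.56, 5.51 and 5.38 FPKM in wild type and 6.81, 7.02 and 6.03 FPKM in NICD2 kidneys, at 0.23 ± 0.08 (SE, adjusted p = 0.109). Both separated the genotypes by narrow margins. Epha3 was at -0.31 ± 0.15, Efna2 at -0.17 ± 0.10, Ephb1 at -0.06 ± 0.12 and Ephb6, a receptor without kinase activity, at 0.03 ± 0.11 on the log2 scale (SE), with adjusted p of 0.242, 0.322, 0.779 and 0.886. Over the whole family 18 of 22 genes were tested, with 5 called higher and 1 lower, where 4.93% and 3.86% of all tested genes were. Of the 5 called higher, 4 are members chosen on this comparison, so nothing is read from this count. The family median log2 fold change was 0.01. The summed EphA level was 38.1 ± 2.15 FPKM in wild type and 34.4 ± 2.04 FPKM in NICD2 kidneys, and the summed EphB level 64.6 ± 3.30 and 66.1 ± 0.380 FPKM (SD, n = 3 each). Within the EphB sum Ephb4 made up 61.0% in wild type and 54.6% in NICD2 kidneys, and Ephb3 19.6% and 24.8%.

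**Figure D4:**
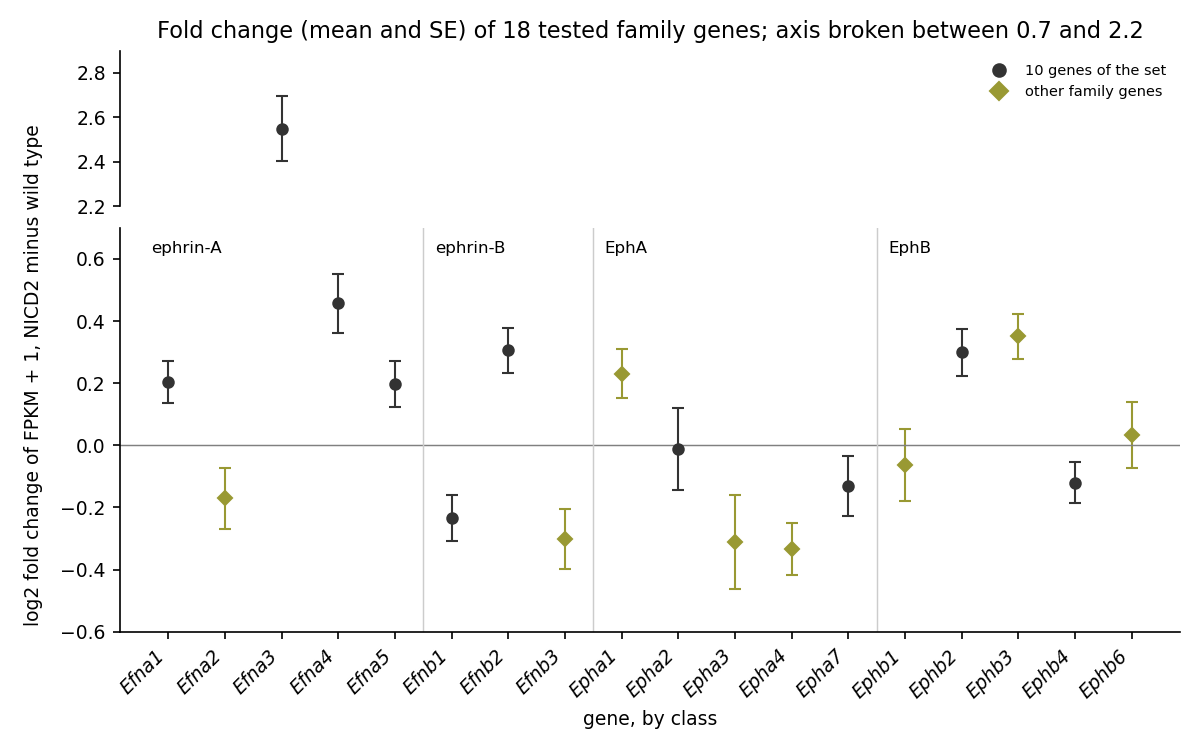
Log2 fold change of log2(FPKM + 1), NICD2 minus wild type, with its SE, for the 18 tested genes of the family, grouped into ephrin-A, ephrin-B, EphA and EphB. Efna3 is at 2.55 and the other 17 genes lie between -0.33 and 0.46.

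Downstream of the receptors, 39 genes of forward signalling were all tested, and Nck2 rose while Arhgef15 and Ptpro fell. Among all tested genes 8.79% were called, 4.93% higher and 3.86% lower. The median log2 fold change of the 39 genes was 0.03. Nck2, an adaptor that links active Eph receptors to the actin skeleton, went from 21.04 ± 0.381 FPKM in wild type to 28.9 ± 1.49 FPKM in NICD2 kidneys (SD, n = 3 each), a log2 fold change of 0.44 ± 0.06 (SE, limma adjusted p = 0.0036). Arhgef15, of the ephexin group and found in endothelium, went from 12.5 ± 0.388 to 9.12 ± 0.364 FPKM, at -0.41 ± 0.07 (SE, adjusted p = 0.0065). Ptpro, a podocyte phosphatase able to dephosphorylate Eph receptors, went from 14.1 ± 0.940 to 10.04 ± 0.716 FPKM, at -0.45 ± 0.08 (SE, adjusted p = 0.0093). These 3 calls held on leaving out each library in turn, but all 3 were lost without the pair low in adrenal markers, with adjusted p of 0.0571 for Nck2, 0.0536 for Arhgef15 and 0.0846 for Ptpro. Beside Ptpro, 5 of 6 podocyte markers fell, with summed levels of 342.5 to 380.6 FPKM in wild type and 252.0 to 267.5 FPKM in NICD2 kidneys. Their part in the Ptpro result was not tested.

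Among 20 genes of ephrin shedding and reverse signalling, all tested, Rhbdl2 rose and none fell. Of all tested genes 4.93% were called higher and 3.86% lower. At an unadjusted p under 0.05 by limma were 6 of the 20, beside 25.1% of all tested genes. The median log2 fold change over the 20 was -0.02. Rhbdl2, a rhomboid protease that can cleave ephrin-B3, went from 3.81 ± 0.212 to 5.61 ± 0.118 FPKM (SD, n = 3 each), at 0.46 ± 0.08 (SE, limma adjusted p = 0.0080). Other guidance families also held called genes, to be set beside the same shares over all genes. Of 31 semaphorins, plexins and neuropilins, 29 were tested, with Plxnb1 and Plxna4 higher and Sema3b and Sema6a lower. Plxnb1, a semaphorin receptor, went from 26.7 ± 1.06 to 44.04 ± 4.07 FPKM (SD, n = 3 each, adjusted p = 0.0010). Of 19 slits, netrins and their receptors, 15 were tested, with Ntn4 and Slit3 higher and Robo2 lower. Ntn4, a netrin of basement membranes, read 6.73, 10.2 and 7.50 FPKM in wild type and 27.04, 23.7 and 27.2 FPKM in NICD2 kidneys, at 1.58 ± 0.13 (SE, adjusted p = 0.0002). The median log2 fold changes were -0.10 and -0.22 in these families. Leaving out a single library, the lower calls ranged from 0 to 3 in each family, while the higher calls stayed at 2. Without the pair low in adrenal markers there were 2 higher and 0 lower calls in each.

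Efnb2 and Ephb4 are known for their roles in endothelium, and in bulk tissue fewer cells of a type and less RNA per cell cannot be told apart. Of 16 endothelial markers, all tested, 4 fell (Emcn, Tek, Egfl7 and Tie1), where 3.86% of all tested genes were called lower. None rose, where 4.93% of all tested genes were called higher. All 16 had a negative log2 fold change, with a median of -0.21. At an unadjusted p under 0.05 by limma were 8 of the 16, beside 25.1% of all tested genes. Leaving out a single library left 1 to 3 called, and leaving out the pair low in adrenal markers left 1. Emcn, a sialomucin of capillaries and veins, went from 93.1 ± 4.98 to 68.4 ± 2.66 FPKM (SD, n = 3 each, limma adjusted p = 0.0044) and was called without any single library. The summed endothelial level was 599 to 686 FPKM in wild type and 520 to 559 FPKM in NICD2 kidneys, and no marker was at 0. Summed venous markers were 128 to 135 FPKM and 107 to 111 FPKM, and summed arterial markers, which include the Notch target Hey2, 177 to 186 FPKM and 159 to 184 FPKM. Most of the arterial sum came from Fbln5, named here for that reason (145 FPKM in wild type and 139.7 FPKM in NICD2 kidneys). Of the 6 arterial markers Hey2 rose and the other 5 had negative log2 fold changes, none of them called. The genotypes did not overlap for 3 of these 5, as for 30.5% of all tested genes. The part of these markers in the Ephb4 and Efnb2 values was not tested.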

How the data were processed

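Per the labels' protocols, frozen kidneys were extracted with Trizol and the total RNA went into Illumina TruSeq libraries. The deposited table holds FPKM per gene and library, computed by the authors, and the authors' log2 fold change between the genotypes, per the file headers. Bowtie 0.12.2 and the build mm8 are named in the submitters' processing notes, while the gene positions are GRCm38 ones. Not given in the sources used here are the program that derived FPKM and its handling of strand and multiply mapping reads. Of 23669 rows, 4010 without FPKM and 1 repeated symbol were left out, 2 rows without a symbol were kept under their identifier, and 27 columns of pairwise comparisons were not used.

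FPKM were not rescaled. A gene was tested if it reached 1 FPKM in 3 or more libraries. The test was limma 3.58.1 in R 4.3.3, fitted with a trend of variance on mean to log2(FPKM + 1), two-sided, over 3 libraries per genotype, with Benjamini-Hochberg adjustment over all 13765 genes and a threshold of 0.05. Library depth was estimated from the spacing of low FPKM. Depth and a length offset were searched for the highest share of those values within 0.15 of a whole fragment. That share was 77.1% to 79.8%, too low for a count test. By chance 30.0% would be reached at a depth fixed in advance, which is not the level for the best of a search. Means, ratios, sums and motif searches used Python 3.11.15 with pandas 2.3.3, and RefSeq promoter windows matched all 10 members and 21 of 22 family genes by symbol.

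The members and all gene lists were chosen with earlier results of these data known. The genes named are all 22 family genes, genes within 100 kb of the ephrin-A cluster, up to 4 genes of each pathway list and up to 3 of each marker list with the smallest p, and Notch2 and its targets. A further endothelial marker is named to complete a count. Alternatives were another pseudocount, filter and scaling, a replicate block, and leaving out each library. Leaving out the pair low in adrenal markers was added after seeing the data.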

Additional observations from a re-analysis of the deposited data

How the results depend on the processing

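Over all genes, 1210 were called (679 higher, 531 lower). Leaving out each library in turn gave 603 to 955 (377 to 568 higher, 215 to 391 lower), and leaving out the pair low in adrenal markers gave 469 (296 higher, 173 lower). Called higher among the 10 members were 4 genes, which became 1 with no filter on low values, 1 without the pair and 1 to 3 on leaving out each library, and called lower were 0, which became 0 to 1. Over the 22 family genes the 5 higher became 2 with no filter, 1 without the pair and 1 to 3 on leaving out each library, and the 1 lower became 0, 0 and 0 to 1. For the 12 other family genes the 1 higher became 0 without the pair and 0 to 1 on leaving out each library, and the 1 lower became 0 with no filter, 0 without the pair and 0 to 1. Genes called beside the cluster became 0 to 1 on leaving out each library. The cause was not tested, beyond the smaller number of libraries. With a replicate block 1055 genes were called, with 2 members higher, 3 family genes higher and 1 gene beside the cluster, Cks1b. Same-numbered libraries did not deviate together (correlations of -0.03, 0.06 and -0.05), while differently numbered ones ran from -0.25 to 0.25. With 3 libraries per genotype these values cannot exclude a pairing by number, and the labels state none.

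Efna3 ranged from 2.37 to 2.92 on the log2 scale, the latter with a pseudocount of 0.1. Upper-quartile scaling left 3 members called higher. On leaving out each library, Ephb1 (-0.06) ran from -0.13 to 0.028, positive without wild type replicate 2 or NICD2 replicate 1. Ephb6 (0.03) ran from -0.047 to 0.094, negative without wild type replicate 3 or NICD2 replicate 1, and was at -0.13 without the pair. Count-based tests were not run, since the table holds no counts. About 82 to 89 fragments limit the wild type Efna3 level in each library.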
